A study of Homo sapiens with 9 samples.

Results

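The genes described here are those of the MYC, MAX and MXD network: MYC, MAX, MXD1, MXD3, MXD4, MXI1, MNT, MLX, MLXIP and MGA. They were chosen by name, as every probe set of the array that is annotated to exactly 1 gene, where that gene is 1 of these 10. The array carries 27 such probe sets out of 54675 in all, for 9 of the 10 genes. The exception is MXD4, whose 3 probe sets also list a microRNA gene, so no value is given for it. Of the 27, 23 had a mean signal above a filter set at the 40th percentile of all probe sets (a signal of about 38.95) and were tested, out of 32768 tested probe sets in all. Those below the filter are 1 probe set each of MXD1, MLX, MLXIP and MGA.

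RNA came from PANC-1, an established human pancreatic adenocarcinoma cell line. All cells were moved a day after seeding to a medium with a low share of charcoal-filtered serum and kept for 72 hours in DMSO, the vehicle, or in TVB-3166 at 0.1 µM or 1.0 µM. The series title names TVB-3166 as an inhibitor of fatty acid synthase, the enzyme that makes palmitate. Each of the 3 groups has 3 Affymetrix HG-U133 Plus 2.0 arrays, and samples were grouped by their titles. Other label fields disagree in places. All 3 samples titled 1.0 µM carry 0.1 µM in their treatment field, 1 sample titled 0.1 µM is described with no TVB-3166, and DMSO is put at 0.05% in one field and 0.5% in another. Nothing in the labels says whether replicates came from separate cultures, so p-values here measure the spread between arrays, which may be technical.

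MYC is a transcription factor that binds DNA as a dimer with MAX and promotes growth, ribosome production and nucleotide synthesis. The MXD proteins, MXI1, which belongs to the same subfamily, and MNT compete for MAX and recruit SIN3 and histone deacetylases to repress many of the same promoters, and MXD1 is known as a gene that goes up when cells leave the cycle and differentiate. MLX is the partner of a second branch, the nutrient sensors MLXIP (MondoA) and MLXIPL (ChREBP), and it also dimerises with MXD1, MXD4 and MNT, while MGA pairs with MAX inside a Polycomb complex. These dimers bind the E-box, and the MondoA and ChREBP dimers bind a pair of E-boxes known as the carbohydrate response element.

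Sequences of 4 promoter windows are shown because their genes carry the results that follow: MXD1 had the strongest change of the network, MLX is the shared partner, and TXNIP and ARRDC4 are targets of the MLX dimers. Each window is the 250 bases before a gene start in RefSeq on GRCh38.p14, written 5′ to 3′ on the gene's strand. Capitals mark the E-box CACGTG or a pair of CACGNG boxes with 5 bases between them. The pair was accepted on either strand, with both boxes in the same orientation. The MXD1 window, chr2:69914859-69915108 on the plus strand, holds neither. The MLX window, chr17:42566850-42567099 on the plus strand, has its E-box at position −50 from the start. In the first of 2 TXNIP windows, chr1:145996580-145996829 on the minus strand, the pair begins at −88. The second TXNIP window, chr1:145995745-145995994, is not shown and holds neither. The ARRDC4 window, chr15:97960453-97960702 on the plus strand, has an E-box at −210.
MXD1: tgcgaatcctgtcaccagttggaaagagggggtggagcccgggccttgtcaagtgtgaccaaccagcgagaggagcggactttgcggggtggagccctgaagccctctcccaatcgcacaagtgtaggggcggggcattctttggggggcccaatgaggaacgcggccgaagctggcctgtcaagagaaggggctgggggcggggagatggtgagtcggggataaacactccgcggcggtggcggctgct
MLX: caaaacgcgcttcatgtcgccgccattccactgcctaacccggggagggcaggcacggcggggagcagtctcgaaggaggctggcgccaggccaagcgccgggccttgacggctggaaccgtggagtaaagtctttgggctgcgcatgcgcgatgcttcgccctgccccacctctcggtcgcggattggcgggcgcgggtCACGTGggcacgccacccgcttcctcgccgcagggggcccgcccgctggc
TXNIP: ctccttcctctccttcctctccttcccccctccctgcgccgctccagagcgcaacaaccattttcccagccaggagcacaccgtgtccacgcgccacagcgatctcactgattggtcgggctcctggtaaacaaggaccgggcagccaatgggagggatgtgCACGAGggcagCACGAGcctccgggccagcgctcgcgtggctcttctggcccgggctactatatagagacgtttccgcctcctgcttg
ARRDC4: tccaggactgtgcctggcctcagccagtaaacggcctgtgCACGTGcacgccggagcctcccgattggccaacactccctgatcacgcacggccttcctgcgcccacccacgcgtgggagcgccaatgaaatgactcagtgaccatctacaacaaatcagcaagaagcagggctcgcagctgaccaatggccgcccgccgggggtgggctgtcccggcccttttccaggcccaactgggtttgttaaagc
Over all 35116 windows of the RefSeq table, 6.34% held CACGTG and 0.0456% (16 windows) held the pair. Among the network, the 14 windows of 9 genes were searched, with MXD4 included and MYC left out. Of these, 3 held CACGTG, in MLX, MNT (−193) and MXD4 (−238), and 0 held the pair. A match describes the letters of these windows only.

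At 1.0 µM against DMSO, 8 of the 23 probe sets passed the test, 7 higher and 1 lower, in 5 genes: MXD1, MYC, MAX and MLX rose and 1 probe set of MGA fell. The test was limma's two-sided moderated test on log2(signal + 16), fitted over all 32768 probe sets and 9 arrays, and a probe set was called at a Benjamini-Hochberg adjusted p under 0.05. Over all tested probe sets 17.6% were called, 8.94% higher and 8.68% lower, against 34.8% of the network's. The count was 5 without DMSO replicate 2 or 1.0 µM replicate 1 and 4 without 1.0 µM replicate 3. The treated and DMSO arrays did not overlap for 12 of the 23 (10 higher, 2 lower), where 33.0% of all probe sets did not. By the leading probe set of each gene, that with the highest mean signal, 5 of 9 genes were called (4 higher, 1 lower), against 21.4% of all 13948 genes (11.5% higher, 9.97% lower). The median change of the 9 leading probe sets was 0.30 on the log2 scale, against 0.01 over all genes.

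At 0.1 µM against DMSO, 2 of the 23 were called, both probe sets of MXD1 and both higher. That share, 8.7%, stands beside 8.25% of all probe sets called (4.59% higher). By leading probe sets 1 of 9 genes was called, beside 10.6% of all genes, 6.12% higher and 4.45% lower. Groups did not overlap for 7 of the 23, beside 27.0% of all. At 1.0 µM against 0.1 µM, 1 of the 23 was called, the leading probe set of MXD1, beside 0.281% of all probe sets, and groups did not overlap for 9, beside 17.3% of all. The 3 comparisons share arrays, so they are not independent of each other.

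**Figure D1:**
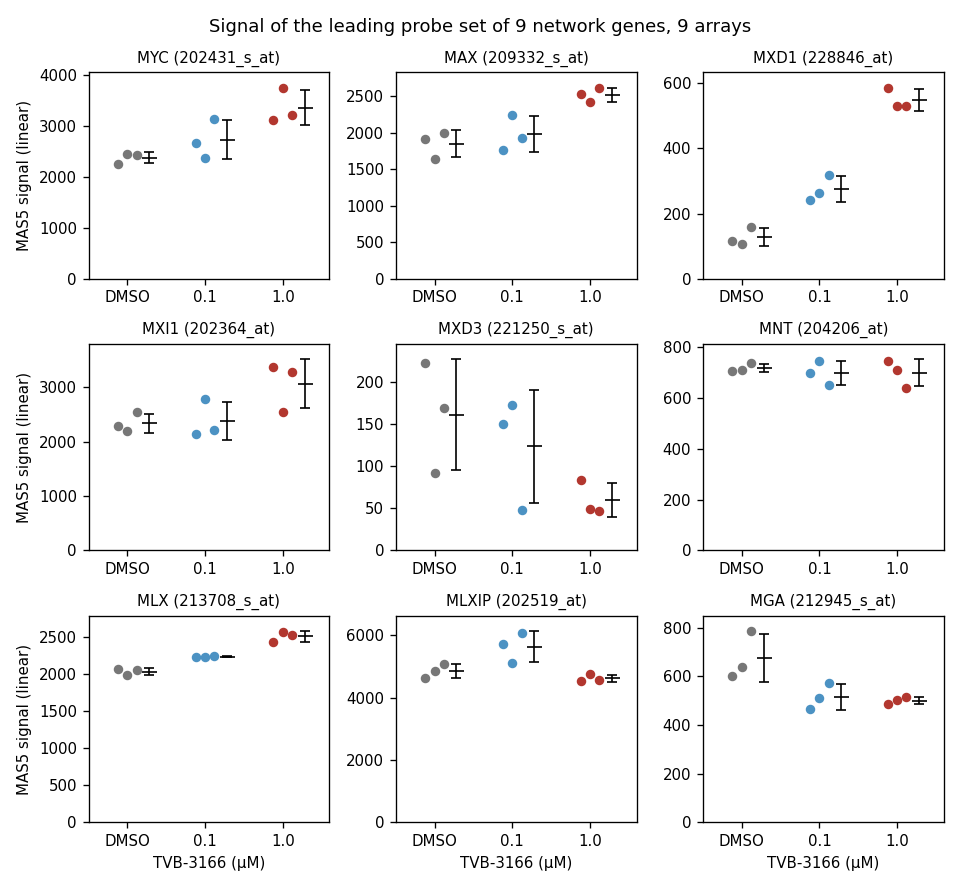
Linear MAS5 signal of the leading probe set of each of the 9 measured genes on every array (points), with the mean and SD of 3 arrays (bars), in DMSO and at 0.1 and 1.0 µM TVB-3166. MXD1 steps up at each dose with no overlap between groups, MYC, MAX and MLX are higher at 1.0 µM than in DMSO on every array, and MGA is lower.

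MXD1 (Entrez gene 4084; GRCh38.p14 chromosome 2, 69915109 to 69942945), the MAX partner that antagonises MYC, had the largest change of the network at either dose. Its leading probe set, 228846_at, read 115.8, 106.0 and 158.3 in DMSO, 241.6, 263.5 and 318.2 at 0.1 µM, and 586.4, 530.4 and 528.8 at 1.0 µM. Each group lay wholly above the one before it. Here and below a signal is the MAS5 value per probe set, which has no unit, is linear and was scaled by the authors to the same trimmed mean of 500.1 on every array. The means were 548.5 ± 32.8 at 1.0 µM and 126.7 ± 27.8 in DMSO (SD, n = 3 each), a ratio of 4.33. On the log2(signal + 16) scale the rise was 2.00 ± 0.16 (limma standard error, as in all log2 changes below; adjusted p = 7.17e-06) at 1.0 µM and 1.03 ± 0.16 (adjusted p = 0.00196) at 0.1 µM. Between the doses the rise was 0.97 ± 0.16 (adjusted p = 0.0389), a call that leaving out any of 7 of the 9 arrays ended (adjusted p 0.0541 to 0.217 without DMSO replicate 1 or any treated array).

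The second MXD1 probe set, 226275_at, gave the same order. Its signals were 154.9, 126.6 and 127.0 in DMSO, 193.0, 279.6 and 287.0 at 0.1 µM, and 406.0, 372.4 and 408.3 at 1.0 µM, again with no overlap between groups. It rose by 1.44 ± 0.17 at 1.0 µM (adjusted p = 1.01e-04) and by 0.81 ± 0.17 at 0.1 µM (adjusted p = 0.0107, but 0.0667 without 0.1 µM replicate 3), and its difference between the doses was 0.63 ± 0.17 (adjusted p = 0.178). The third, 206877_at, lay below the filter and read 5.7, 7.2 and 7.3 in DMSO, 14.2, 15.5 and 70.2 at 0.1 µM, and 35.2, 77.0 and 41.5 at 1.0 µM. In a fit with no filter its change at 1.0 µM was 1.51 (adjusted p = 0.0384). In bulk RNA such as this, more RNA per cell and more cells that hold it cannot be told apart.

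**Figure D2:**
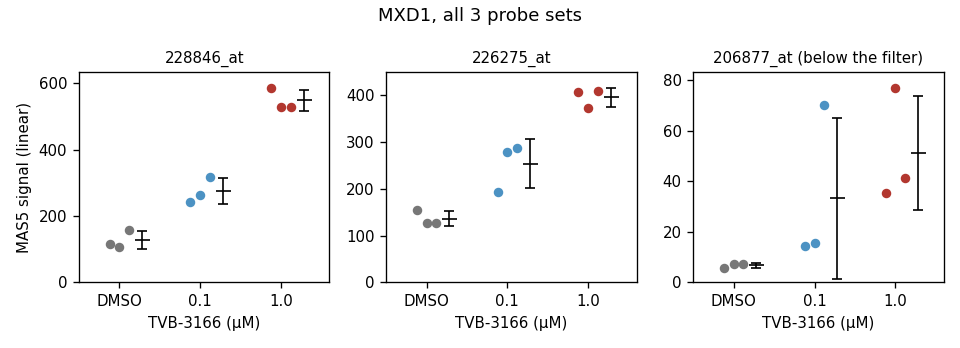
Linear MAS5 signal of the 3 probe sets of MXD1 on 9 arrays (points), with mean and SD of 3 arrays (bars), in DMSO and at 0.1 and 1.0 µM TVB-3166. For 228846_at and 226275_at the 3 groups do not overlap, and for 206877_at, below the filter, 1 array at 0.1 µM (70.2) lies among those at 1.0 µM.

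The other MXD genes gave no call. MXI1 (202364_at), which like MXD1 pairs with MAX and represses, read 2282.4, 2192.6 and 2539.0 in DMSO, 2137.5, 2779.4 and 2218.3 at 0.1 µM, and 3366.3, 2552.2 and 3278.7 at 1.0 µM. The 1.0 µM arrays lay above those in DMSO by a narrow margin, and the change was 0.38 ± 0.13 (adjusted p = 0.0690), while at 0.1 µM it was 0.02 ± 0.13 (adjusted p = 0.959). It passed without 0.1 µM replicate 2 (adjusted p = 0.0474) or without 1.0 µM replicate 2 (adjusted p = 0.0158). MXD3 (221250_s_at), a member known for expression in dividing cells, had a change of the opposite sign to MXD1. It read 223.0, 91.7 and 169.2 in DMSO, 150.1, 173.7 and 47.8 at 0.1 µM, and 83.3, 49.7 and 47.2 at 1.0 µM, so all 1.0 µM arrays lay below all in DMSO. The change was −1.18 ± 0.40 (95% interval −2.06 to −0.30; adjusted p = 0.0657), and it passed without DMSO replicate 2 (adjusted p = 0.0364) or without 0.1 µM replicate 3 (adjusted p = 0.0226).

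MNT, the broadly expressed repressor partner of MAX, stayed close to its DMSO level. Its leading probe set 204206_at read 705.5, 708.2 and 735.0 in DMSO, 696.8, 743.6 and 650.8 at 0.1 µM, and 743.9, 708.4 and 639.6 at 1.0 µM, with overlapping groups. The change at 1.0 µM was −0.04 ± 0.10 (adjusted p = 0.849), and its 95% interval, −0.26 to 0.18, is the range of change these arrays allow. The dimmer 236749_at had a change of 0.05 ± 0.31 (adjusted p = 0.949) with signals between 37.8 and 117.7 over all arrays.

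MYC (202431_s_at; Entrez gene 4609; GRCh38.p14 chromosome 8, 127735434 to 127742951) has a single probe set here. It read 2264.4, 2450.0 and 2435.1 in DMSO, 2679.7, 2378.1 and 3150.3 at 0.1 µM, and 3118.9, 3759.8 and 3228.2 at 1.0 µM. All 1.0 µM arrays lay above all DMSO arrays, while the 0.1 µM arrays overlapped both other groups. MYC averaged 3369 ± 343 at 1.0 µM and 2383 ± 103 in DMSO (SD, n = 3 each), a ratio of 1.41 and a rise of 0.49 ± 0.12 (adjusted p = 0.0119). At 0.1 µM the change was 0.19 ± 0.12 (95% interval −0.06 to 0.44; adjusted p = 0.386), and between the doses it was 0.30 ± 0.12 (adjusted p = 0.384).

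MAX, the shared partner of MYC, the MXD proteins, MNT and MGA, has 5 tested probe sets, and the 2 brightest were higher at 1.0 µM. The leading one, 209332_s_at, read 1922.1, 1647.0 and 1992.5 in DMSO, 1768.9, 2250.5 and 1930.2 at 0.1 µM, and 2529.0, 2429.0 and 2619.2 at 1.0 µM. Its rise was 0.45 ± 0.11 (adjusted p = 0.0155; 0.0667 without DMSO replicate 2 and 0.0631 without 1.0 µM replicate 3). The second, 209331_s_at, read 644.6, 613.4 and 745.0 in DMSO, 697.9, 755.1 and 745.9 at 0.1 µM, and 834.7, 863.2 and 887.2 at 1.0 µM. It rose by 0.36 ± 0.10 (adjusted p = 0.0289), a call lost without DMSO replicate 1 or 2 or any 1.0 µM array (adjusted p 0.0511 to 0.104). The other 3 were not called: the log2 difference was 0.22 for 210734_x_at (adjusted p = 0.347), 0.35 for 208403_x_at (adjusted p = 0.178) and −0.17 for the dim 214108_at (adjusted p = 0.846). At 0.1 µM the 5 had adjusted p of 0.403 to 0.947.

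MLX has 5 tested probe sets too, with changes at 1.0 µM between 0.22 and 0.40. The leading one, 213708_s_at, read 2065.9, 1983.0 and 2054.8 in DMSO, 2227.9, 2234.2 and 2239.5 at 0.1 µM, and 2433.1, 2565.7 and 2534.7 at 1.0 µM. As for MXD1, each group lay wholly above the one before it, with steps that were far smaller. The rise at 1.0 µM was 0.30 ± 0.08 (adjusted p = 0.0235), and that call was lost without DMSO replicate 1 or 2 or 1.0 µM replicate 1 or 3 (adjusted p 0.0513 to 0.0866). At 0.1 µM the change was 0.13 ± 0.08 (adjusted p = 0.379).

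The probe set 217910_x_at of MLX gave the firmer call, at 1384.2, 1388.9 and 1344.0 in DMSO, 1484.4, 1580.3 and 1597.7 at 0.1 µM, and 1732.0, 1971.6 and 1761.0 at 1.0 µM. It rose by 0.40 ± 0.09 at 1.0 µM (adjusted p = 0.00858), and leaving out any single array kept the call. The other 3 were not called: the log2 difference was 0.29 for 217909_s_at (adjusted p = 0.220), 0.22 for 210752_s_at (adjusted p = 0.450) and 0.37 for 1570347_at (adjusted p = 0.575). The sixth, 231401_s_at, stayed below the filter on every array, with signals of 3.3 to 14.4.

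MLXIP, the glucose sensor that enters the nucleus with MLX, did not share the course of its partner. Its leading probe set 202519_at read 4637.4, 4852.7 and 5082.5 in DMSO, 5712.1, 5113.7 and 6085.5 at 0.1 µM, and 4543.8, 4758.2 and 4551.0 at 1.0 µM, so the highest values were at the lower dose. The change was −0.07 ± 0.10 at 1.0 µM (adjusted p = 0.689), 0.21 ± 0.10 at 0.1 µM (adjusted p = 0.223) and −0.28 ± 0.10 between the doses (adjusted p = 0.315). Its tested probe sets 225157_at and 211789_s_at averaged 3843 and 124.3 in DMSO, 4171 and 147.2 at 0.1 µM and 3673 and 123.9 at 1.0 µM. These means were highest at 0.1 µM, but the DMSO and 0.1 µM arrays overlapped. The highest single array of both was DMSO replicate 3 (4775.0 and 186.2), unlike the leading probe set. None of the MLXIP differences passed the test, and 1554886_a_at stayed below the filter.

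MGA, the large MAX partner of the Polycomb complex PRC1.6, gave probe sets of opposite sign. The leading 212945_s_at read 600.8, 636.8 and 785.5 in DMSO, 466.3, 509.5 and 572.3 at 0.1 µM, and 486.7, 500.7 and 514.0 at 1.0 µM, so both doses lay below DMSO on every array. It fell by 0.41 ± 0.13 at 1.0 µM (adjusted p = 0.0412). At 0.1 µM the difference was −0.37 ± 0.13 (adjusted p = 0.0973). The call at 1.0 µM was lost without DMSO replicate 2 or 3, 0.1 µM replicate 2 or any 1.0 µM array (adjusted p 0.0535 to 0.122). The second probe set, 235409_at, read 228.9, 252.8 and 256.6 in DMSO, 264.5, 295.7 and 275.0 at 0.1 µM, and 290.7, 279.9 and 296.8 at 1.0 µM, with both doses above DMSO on every array. Its change was 0.22 ± 0.12 at 1.0 µM (adjusted p = 0.271), and that of 230848_s_at was −0.38 ± 0.51 (adjusted p = 0.696). A direction for MGA as a gene therefore depends on the probe set, and 1564640_at stayed below the filter.

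**Figure D3:**
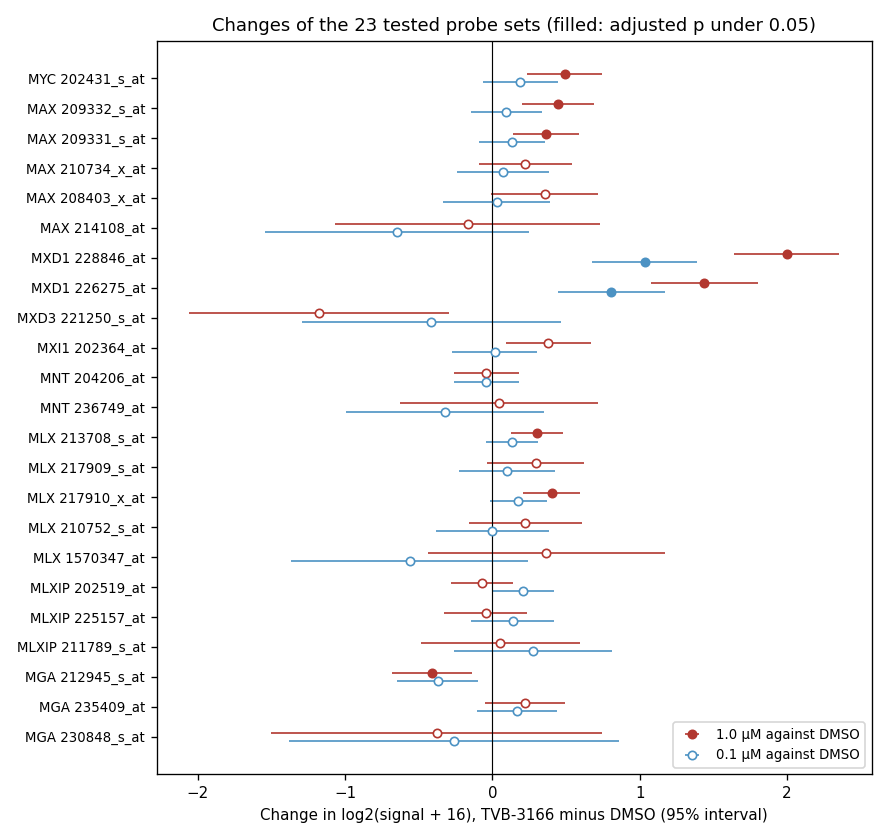
Change in log2(signal + 16) of the 23 tested probe sets, TVB-3166 minus DMSO, with limma 95% intervals, at 1.0 µM (red) and 0.1 µM (blue). Filled points have an adjusted p under 0.05: both MXD1 probe sets at either dose, and at 1.0 µM also MYC, 2 of MAX, 2 of MLX and, below 0, 1 of MGA.

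A split of the arrays crosses these groups. The mean signal of 9 hybridisation spike probe sets was higher on 4 arrays (1 in DMSO, 2 at 0.1 µM and 1 at 1.0 µM) than on the other 5 (2 in DMSO, 1 at 0.1 µM and 2 at 1.0 µM). The change at 1.0 µM against DMSO within the lower and the higher set was 1.92 and 2.16 for MXD1, 0.43 and 0.61 for MYC, 0.39 and 0.56 for MAX, 0.27 and 0.37 for MLX and −0.45 and −0.34 for MGA, by leading probe set. For none of these probe sets did the 1.0 µM and DMSO arrays overlap, so each sign had to be the same in both sets. The sign can therefore not tell whether the split matters, and only the sizes were free to differ. RNA integrity differed little between arrays, the 3′ signal over the 5′ signal being −0.22 to −0.10 in log2 for GAPDH and 0.10 to 0.24 for ACTB.

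Of the MYC family and MLX partners outside the network as defined, MLXIPL (221163_s_at), the ChREBP gene, was higher at both doses. It read 25.7, 67.9 and 59.0 in DMSO, 132.3, 85.9 and 155.5 at 0.1 µM, and 101.8, 148.6 and 99.2 at 1.0 µM, so every treated array lay above every DMSO array. The rise was 1.10 ± 0.30 at 0.1 µM (adjusted p = 0.0434) and 1.03 ± 0.30 at 1.0 µM (adjusted p = 0.0342). Both calls were lost without DMSO replicate 1 (adjusted p = 0.144 at 0.1 µM and 0.118 at 1.0 µM), whose signal lies below the filter level. The call at 1.0 µM was also lost without any 1.0 µM array (adjusted p 0.0619 to 0.102), and that at 0.1 µM without 5 further arrays (adjusted p 0.0575 to 0.187: DMSO replicate 3, 0.1 µM replicates 1 and 3, 1.0 µM replicates 1 and 3). MYCN and MYCL, the paralogs of MYC, were dim, at mean signals of 37.4 to 93.3 over the groups, and were not called (0.49, adjusted p = 0.374, and 0.12, adjusted p = 0.885, at 1.0 µM).

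Targets of the MLX dimers were listed as 11 genes, of which 7 were tested. At 1.0 µM 1 was higher and 0 lower, beside 11.5% higher and 9.97% lower over all genes. The median change was −0.01, beside 0.01 over all genes. At 0.1 µM 2 were higher and 1 lower, beside 6.12% higher and 4.45% lower over all genes. The median there was 0.23, beside −0.01. TXNIP (201010_s_at), the arrestin that limits glucose uptake and the best known MondoA target, read 412.4, 318.6 and 229.1 in DMSO, 725.7, 750.4 and 634.0 at 0.1 µM, and 592.5, 601.9 and 459.7 at 1.0 µM. All treated arrays lay above all DMSO arrays, and the highest values were at the lower dose. TXNIP rose by 1.13 ± 0.18 at 0.1 µM (adjusted p = 0.0024) and by 0.78 ± 0.18 at 1.0 µM (adjusted p = 0.0118), and its other 2 probe sets rose at 1.0 µM too (0.95 and 0.59). The difference between the doses was −0.35 ± 0.18 (adjusted p = 0.537).

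ARRDC4 (225283_at), the related arrestin whose window is shown above, read 293.1, 268.3 and 196.1 in DMSO, 415.5, 472.8 and 331.4 at 0.1 µM, and 360.6, 275.8 and 384.3 at 1.0 µM. It rose by 0.66 ± 0.19 at 0.1 µM (adjusted p = 0.0493), a call that leaving out any array but 1.0 µM replicate 2 ended (adjusted p 0.0557 to 0.149), and its change at 1.0 µM was 0.41 ± 0.19 (adjusted p = 0.159). The third call at 0.1 µM was HK2, a hexokinase gene, named here after its values were seen. Its leading probe set 202934_at read 210.4, 241.7 and 360.0 in DMSO, 105.5, 149.0 and 139.1 at 0.1 µM, and 252.6, 295.5 and 284.7 at 1.0 µM. It fell by 0.94 ± 0.20 at 0.1 µM (adjusted p = 0.0124; 0.0560 without 0.1 µM replicate 1), while its probe set 222305_at had a difference of 0.87 there (adjusted p = 0.0562) and rose by 1.26 at 1.0 µM (adjusted p = 0.00457), so the direction for HK2 depends on the probe set. PFKFB3, KLF10, THRSP and RGS16 were not called at either dose, and PKLR, G6PC1, GPD1 and FGF21 lay below the filter.

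**Figure D4:**
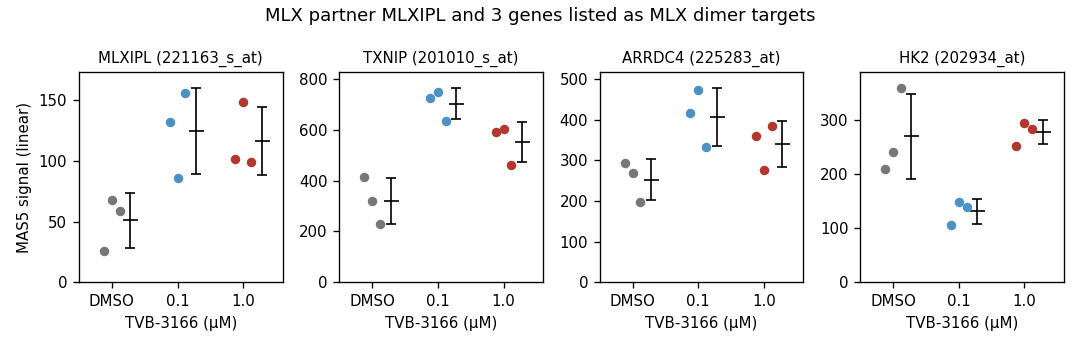
Linear MAS5 signal of the leading probe sets of MLXIPL, TXNIP, ARRDC4 and HK2 on 9 arrays (points), with mean and SD of 3 arrays (bars), in DMSO and at 0.1 and 1.0 µM TVB-3166. MLXIPL and TXNIP are above DMSO on every treated array, and HK2 is low on the 3 arrays at 0.1 µM (105.5 to 149.0).

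The corepressors that MXD proteins and MNT recruit had 0 higher and 3 lower of 10 tested genes at 1.0 µM, beside 11.5% higher and 9.97% lower over all genes. Their median change was −0.23, beside 0.01 over all genes. SKI, a corepressor known from TGF-beta signalling, fell by 0.84 ± 0.12 (adjusted p = 4.26e-04), to a mean of 765.3 ± 69.7 at 1.0 µM against 1391 ± 205 in DMSO. The other probe sets of SKI had differences of −0.30 and 0.15 and were not called. RBBP7, a histone chaperone of the SIN3 complex, fell by 0.39 ± 0.10 (adjusted p = 0.0143), and the deacetylase HDAC1 by 0.35 ± 0.11 (adjusted p = 0.0491). The RBBP7 call was lost without DMSO replicate 1 or 2 or 1.0 µM replicate 3 (adjusted p 0.0512 to 0.0604), and that of HDAC1 without any array but replicate 2 of either dose (adjusted p 0.0643 to 0.169). RBBP4, SIN3A and SAP30 were not called by leading probe set but had others called lower at 1.0 µM. For RBBP4 these were 225396_at (−1.09, adjusted p = 2.84e-04), 244872_at (−1.31, 3.53e-04), 237333_at (−0.93, 0.00519) and 210371_s_at (−0.38, 0.0284), while 239071_at was at −0.001 (0.996). For SIN3A it was 238005_s_at (−0.51, 0.00583). For SAP30 it was 204899_s_at (−0.37, 0.0215), while 204898_at was at 0.63 (0.299). Among 12 MYC coactivators, whose median change was −0.06, 1 was higher and 0 lower, CDK9, the kinase that releases paused polymerase, at 0.43 ± 0.13 (adjusted p = 0.0420), a call that leaving out any array but DMSO replicate 3 or 1.0 µM replicate 3 ended (adjusted p 0.0545 to 0.145). The other CDK9 probe set, 236023_at, had a difference of 0.06 (adjusted p = 0.906). The coactivator RUVBL2 was not called by leading probe set, but its 201459_at was called lower at 1.0 µM (−0.36, adjusted p = 0.0159). It was also called lower at 0.1 µM (−0.42, adjusted p = 0.0135).

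Of 11 tested partners of MGA in PRC1.6, 2 were higher and 2 lower at 1.0 µM, beside 11.5% higher and 9.97% lower over all genes, and their median change was 0.03. PCGF6, the Polycomb ring finger protein that defines the complex, rose by 0.54 ± 0.11 (adjusted p = 0.00449), and E2F6, a repressive E2F, rose by 0.45 ± 0.11 (adjusted p = 0.0132). TFDP1, the E2F dimer partner, fell by 0.56 ± 0.09 (adjusted p = 8.29e-04), and HDAC1 is shared with the corepressor list. CBX3 was not called by leading probe set, but 1555920_at (−0.52, adjusted p = 0.0350) and 230998_at (−0.61, adjusted p = 0.0300) were called lower.

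Genes that act on the stability of the MYC protein gave 1 higher and 3 lower of 14 tested at 1.0 µM, beside 11.5% and 9.97% over all genes, with a median change of −0.07. FBXO32, an F-box protein, rose by 0.91 ± 0.17 (adjusted p = 0.0031), and of its other 3 probe sets 225328_at rose by 0.94 (adjusted p = 0.00552) while 232729_at (0.56) and 241763_s_at (0.28) were not called. CIP2A, the inhibitor of PP2A that protects MYC from degradation, fell by 1.16 ± 0.20 (adjusted p = 0.00186), to a mean of 246.3 ± 50.3 at 1.0 µM against 564.8 ± 83.1 in DMSO. The mitotic kinase AURKA fell by 0.94 ± 0.12 (adjusted p = 2.36e-04) and the ubiquitin ligase subunit SKP2 by 0.91 ± 0.16 (adjusted p = 0.00212). CIP2A, AURKA and SKP2 were lower at 0.1 µM as well, with the call of SKP2 lost without DMSO replicate 1 or 2, any 0.1 µM array or 1.0 µM replicate 3 (adjusted p 0.0509 to 0.108). The second CIP2A probe set, 1553810_a_at, fell by 1.23 at 1.0 µM (adjusted p = 0.00119) and had a difference of −0.70 at 0.1 µM (adjusted p = 0.0517). The other 2 SKP2 probe sets were called lower at both doses, at 0.1 µM with −0.82 (adjusted p = 0.0340) and −0.72 (adjusted p = 0.0137). AURKA is also in the list of proliferation markers, and its probe set 208080_at had a difference of 0.02 at 1.0 µM (adjusted p = 0.988), unlike the other 2. FBXW7, HUWE1, USP28 and GSK3B were among the 10 tested genes that were not called by leading probe set. One GSK3B probe set, 226183_at, did fall by 0.59 at 1.0 µM (adjusted p = 0.0426), and the other tested GSK3B probe sets were not called. In the other direction, USP36 224978_s_at rose by 0.52 (adjusted p = 0.0193) and FBXL14 1553682_at by 0.81 (adjusted p = 0.0445) at 1.0 µM. The other tested probe sets of USP36 and FBXL14 were not called.

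Of 38 tested MYC-activated genes of biosynthesis, 2 were higher and 4 lower at 1.0 µM, beside 11.5% higher and 9.97% lower over all genes, and the median change was −0.03. TMEM97, a sterol-regulated membrane protein, rose by 0.65 ± 0.10 (adjusted p = 7.19e-04) and SHMT2, the mitochondrial serine hydroxymethyltransferase, by 0.63 ± 0.13 (adjusted p = 0.00519). The translation factor EIF4E fell by 0.46 ± 0.10 (adjusted p = 0.00673), lactate dehydrogenase LDHA by 0.57 ± 0.18 (adjusted p = 0.0449), the chaperonin HSPE1 by 0.42 ± 0.12 (adjusted p = 0.0376) and the transferrin receptor TFRC by 0.34 ± 0.10 (adjusted p = 0.0395). The LDHA call was lost without DMSO replicate 2 or 3, 0.1 µM replicate 3 or 1.0 µM replicate 1 or 3 (adjusted p 0.0674 to 0.158). That of TFRC was lost without any array but replicate 2 of either dose (adjusted p 0.0562 to 0.136), and that of HSPE1 likewise, save that it also held without DMSO replicate 3 (adjusted p 0.0523 to 0.143). The other 2 TFRC probe sets had larger falls at 1.0 µM, −0.62 for 207332_s_at (adjusted p = 0.0111) and −0.89 for 237215_s_at (adjusted p = 7.79e-05). Of the other 3 for EIF4E, 201437_s_at fell by 0.58 (adjusted p = 0.0330), and the others, at −0.38 and −0.37, were not called. At 0.1 µM 2 were higher, TMEM97 (0.92) and SHMT2 (0.51), and 2 lower, TFRC (−0.52) and NOP58 (−0.34), the last named after its values were seen. Over all genes 6.12% were higher and 4.45% lower at that dose. The NOP58 call was lost without any array but 1.0 µM replicate 2 (adjusted p 0.0527 to 0.149). The SHMT2 call at 0.1 µM was lost without DMSO replicate 1 or 3 or 0.1 µM replicate 1 or 3 (adjusted p 0.0910 to 0.130). Its other 2 probe sets rose more: 214095_at by 1.02 at 0.1 µM (adjusted p = 8.17e-04) and 1.02 at 1.0 µM (adjusted p = 3.95e-04), and 214437_s_at by 0.63 at 0.1 µM (adjusted p = 0.00992) and 1.05 at 1.0 µM (adjusted p = 1.50e-04). The remaining 32 at 1.0 µM include nucleolar genes such as NCL, NPM1 and FBL, which were not called. Some of the remaining genes had another probe set that was called. POLR1A 228515_at (−0.72, adjusted p = 0.00447) and 235280_at (−0.43, adjusted p = 0.0452) and PTMA 208549_x_at (−0.66, adjusted p = 0.0141) were lower. RRP12 216360_x_at (0.49, adjusted p = 0.0238) was higher.

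Of 10 tested genes that MYC is known to repress, 2 were higher and 2 lower at 1.0 µM, beside 11.5% higher and 9.97% lower over all genes. GADD45A, a stress-induced growth inhibitor, rose by 0.49 ± 0.09 (adjusted p = 0.00302), and the cyclin-dependent kinase inhibitor CDKN1A by 0.35 ± 0.09 (adjusted p = 0.0146), a call that was lost for CDKN1A without DMSO replicate 2 or 1.0 µM replicate 1 or 3 (adjusted p 0.0545 to 0.0616). NDRG1, a stress and differentiation gene, fell by 1.93 ± 0.17 (adjusted p = 1.03e-05). The collagen gene COL1A1 fell by 2.32 ± 0.17 (adjusted p = 2.94e-06), though 1 of the 4 probe sets of COL1A1, 217430_x_at, had a difference of 0.09 (adjusted p = 0.871). Among 5 other E-box factors TFE3, a lysosomal regulator, was higher at 0.40 ± 0.12 (adjusted p = 0.0355), a call that held under omission of DMSO replicate 3, 0.1 µM replicate 2 or 1.0 µM replicate 3 but of no other array (adjusted p 0.0506 to 0.139), and 0 were lower. The other 3 TFE3 probe sets had differences of 0.64 (adjusted p = 0.0419), 0.60 (adjusted p = 0.0628) and 0.17 (adjusted p = 0.828). MITF, another of these factors, was not called by its leading probe set 207233_s_at (−0.08, adjusted p = 0.836). Its probe set 226066_at fell by 0.55 at 1.0 µM (adjusted p = 0.0229) and by 0.55 at 0.1 µM (adjusted p = 0.0399).

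**Figure D5:**
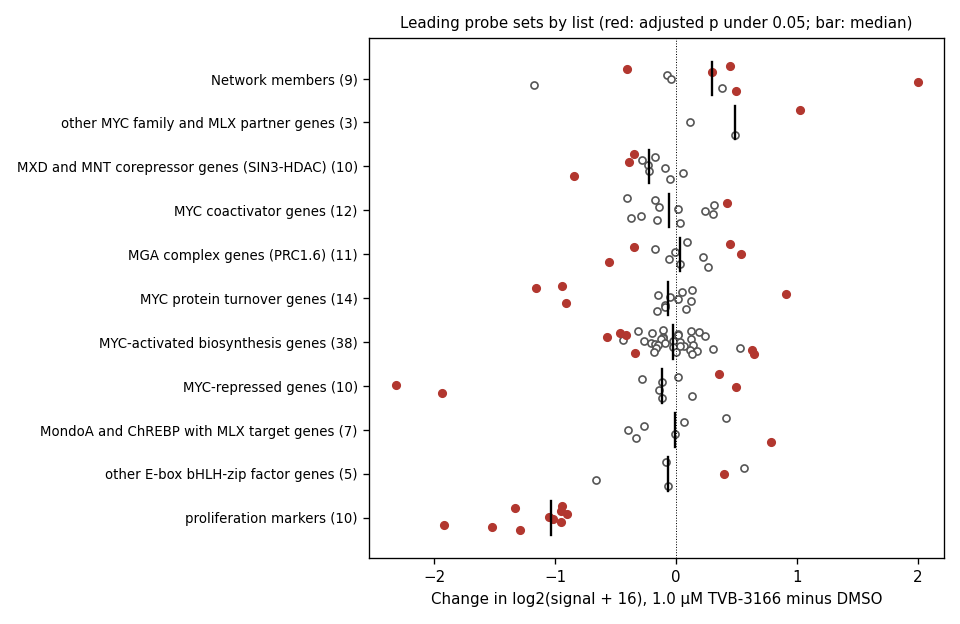
Change in log2(signal + 16) at 1.0 µM minus DMSO for the leading probe set of each tested gene (points), grouped by list with the number tested, where red points have an adjusted p under 0.05 and black bars are list medians. The network's median lies at 0.30, that of MYC-activated genes at −0.03, and all 10 proliferation markers lie between −1.92 and −0.91.

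All 10 proliferation markers were called lower at both doses, beside 9.97% of all genes at 1.0 µM and 4.45% at 0.1 µM. Their median changes were −1.03 at 1.0 µM and −0.93 at 0.1 µM, beside 0.01 and −0.01 over all genes. RRM2, the inducible subunit of ribonucleotide reductase, fell by 1.92 ± 0.10 at 1.0 µM (adjusted p = 4.34e-07). The differences at that dose were −1.52 for TOP2A, −1.33 for BUB1, −1.29 for TYMS, −1.05 for MKI67 and −0.91 for MCM2, all called (adjusted p from 9.88e-06 to 5.85e-05). Their summed signal was 33815 to 39078 over the DMSO arrays, 18095 to 19956 at 0.1 µM and 15300 to 15858 at 1.0 µM. The part of this shift in the changes of MXD1, MXD3 and the other members was not tested.

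The tested markers of the cell line were present on every array: KRT8, KRT18, KRT19, KRT7, EPCAM and VIM had single signals of 289.8 or more. KRT7 was higher at 1.0 µM (1.06 ± 0.12) and KRT8 (−0.86) and KRT19 (−0.90) were lower, by leading probe set. The probe sets 1558393_at of KRT7 (−0.02, adjusted p = 0.970) and 228491_at of KRT19 (−0.09, adjusted p = 0.912) were not called. Of 14 markers of blood, endothelial, liver, other pancreatic and prostate cells, 11 had a probe set and 4 passed the filter (CD3E, PECAM1, APOA1 and KLK3), with 0 called. The summed signal of the 11 was 743.8 to 1067 in DMSO, 727.7 to 931.4 at 0.1 µM and 775.3 to 973.5 at 1.0 µM, mostly from KLK3 (471 in DMSO, 409 at 0.1 µM and 472 at 1.0 µM on average, by a probe set that can bind related transcripts) and PECAM1 (191, 180 and 204). The defining markers INS, CPA1, GCG, ALB and PTPRC averaged under 30 in every group.

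Genes whose leading probe set followed a member most closely over the 9 arrays were found by Pearson's r on log2(signal + 16). For MXD1 these were DUSP5 (r = 0.993), BMP6 (0.993), NFIL3 (0.993), TRIM16 (0.991) and SPIRE1 (0.991). For MYC they were PRELID3B (0.974), DYNC1LI1 (0.955), YBX3 (0.952), MACF1 (0.952) and ARHGAP29 (0.952). The 9 arrays fall into 3 dose groups, so these values describe a shared order of the groups and carry no p. DUSP5, a phosphatase gene that ERK signalling induces, had mean signals of 1085 in DMSO, 1721 at 0.1 µM and 2976 at 1.0 µM.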

How the data were processed

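Total RNA was hybridised to 9 Affymetrix HG-U133 Plus 2.0 arrays, 3 per group, per the labels. The deposited value per probe set is a MAS5 signal, a linear intensity, per the submitters' processing notes, and the trimmed mean (2% at each end) of each array is 500.1. Values were used as deposited, as log2(signal + 16), which makes changes of dim probe sets smaller. The 62 control probe sets were left out. Symbols were updated by Entrez identifier to RefSeq on GRCh38.p14 (41037 of 41091 probe sets with 1 symbol matched, 1801 list several and 11721 none). Probe sets ending in _s_at or _x_at can bind related transcripts.

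All 9 arrays were fitted in 1 model with limma 3.58.1 in R 4.3.3 (lmFit, eBayes with trend; 6 residual and 6.07 prior degrees of freedom), and p-values were adjusted by Benjamini-Hochberg over all 32768 tested probe sets. The fit was tested on simulated data. Leading probe sets stand for genes in 12 lists around the network, so a gene counted as not called may have another probe set that was called. Every network probe set is reported. In each other list all genes called at 1.0 µM are named where they are 6 or fewer, otherwise the 6 with the smallest p, and TXNIP and ARRDC4 in any case. The members, lists, tests and 23 alternative settings were chosen with earlier results of these data known. Depth in reads does not apply to arrays, where their number limits the precision.

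Whether replicate numbers pair the samples was checked by the correlation of same-numbered residuals, which ran from −0.30 to 0.20. Within each group the spike split also follows the replicate number. It ran lower, higher and lower over replicates 1, 2 and 3 in DMSO and at 1.0 µM, and higher, lower and higher at 0.1 µM. For that reason the check cannot decide whether the samples are paired. Promoter windows came from RefSeq on GRCh38.p14.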

Additional observations from a re-analysis of the deposited data

How the results depend on the processing

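Of 1527 recomputed changes of the network's probe sets, 1461 kept their direction or, if not called, stayed uncalled, 50 lost a call, 16 gained one and 0 called changes turned their sign. Most of the 1527 were not called in the text's setting and so had no call to lose. The call of MXD1 228846_at between the doses was lost in 12 of 23 settings. At 1.0 µM against DMSO, MGA 212945_s_at lost its call in 11 of 23, MAX 209331_s_at in 10 of 22 and MLX 213708_s_at in 9 of 23. The other calls were lost in fewer settings. The calls of MYC and of MXD1 228846_at at 1.0 µM against DMSO held under all 23 alternative settings, and that of MXD1 226275_at under all 22 that tested it. Among 30 other genes named from the lists, 18 kept their call at 1.0 µM under every alternative.

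The count of network probe sets called at 1.0 µM against DMSO, 8 in the text, was 3 with each array centred on its median, 5 without the intensity trend, 5 of 9 with only leading probe sets, and 4 to 9 with single arrays left out. At 0.1 µM against DMSO, 2 in the text, it was 1 with only leading probe sets, 0 (3 at an unadjusted p under 0.05) on the lower spike set, which holds 1 array at that dose, and 1 to 2 with single arrays left out. Between the doses, 1 in the text, limma called 0 with no filter (10 at an unadjusted p under 0.05), 0 with median centring (5), 0 without the trend (6), 0 on the lower spike set (5), 5 with array weights, and 0 to 1 with single arrays left out. The fit with the replicate number as a block called 6, 2 and 0 (7 unadjusted) in these comparisons. The causes were not tested.

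Over all probe sets, apart from the setting with only leading ones, the alternatives called 3888 to 8610 at 1.0 µM (5772 in the text's setting), 396 to 3925 at 0.1 µM (2703) and 0 to 2082 between the doses (92). With 3 arrays a group, small changes such as those of MAX, MLX and MGA sit near the threshold.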
